A study of Canis lupus familiaris with 27 samples.

Results

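The genes of the cytosolic ribosome were examined in 27 canine simple mammary carcinomas. A gene was taken when its symbol on the array began with RPL or RPS and a number, kinase symbols of the RPS6K type apart, or was RPLP0, RPLP1 or RPLP2, and this gave 59 of the 15115 genes with a symbol of their own. Of these 59 genes, 20 code for proteins of the small (40S) subunit and 31 for proteins of the large (60S) subunit, the 3 stalk proteins included. A further 7 are paralogs of ribosomal proteins (RPL3L, RPL7L1, RPL10L, RPL22L1, RPL26L1, RPL36AL and RPS27L), and RPS19BP1 carries the symbol of a protein that binds RPS19 and is not itself part of the ribosome. Each gene was read from its probe set of highest mean over the 27 tumors. RPSA, RPS6, RPS15A, RPL3, RPL11, RPL36A and RPL37 have no probe set that names them alone and were not analysed here, and 75 probe sets that join a ribosomal protein symbol with other genes were left out.

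The metastatic group held 13 carcinomas from dogs with lymph node metastases at resection, 6 of grade II and 7 of grade III by the labels, measuring 2.42 ± 1.32 cm (SD), in dogs aged 9 to 16 years. The non-metastatic group held 14 carcinomas from dogs without lymph node metastases, 5 of grade II and 9 of grade III, measuring 5.21 ± 3.53 cm (SD), in dogs aged 9 to 15 years. All 27 tumors were invasive, estrogen receptor negative simple carcinomas, macrodissected for a high share of carcinoma cells and hybridized once each to an Affymetrix Canine Genome 2.0 array. For the non-metastatic group the study chose tumors by a grade of III and by a diameter above the mean of the metastatic tumors, so size and lymph node status are not independent, although the labels give grade II for 5 of them. Non-metastatic tumor 1, of grade II by its label, is listed as grade III in the study, and the labels were followed. The labels name no treatment.

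A ribosome reads the mRNA with its 40S subunit and joins amino acids with its 60S subunit, and each subunit is built from ribosomal RNA and a set of proteins of which mostly a single copy is present. The mRNAs of ribosomal proteins are among the most abundant of a cell, and in mammals they carry a terminal pyrimidine tract by which growth signals control their translation together with that of elongation factors. Free ribosomal proteins also act outside the ribosome, RPL5 and RPL11 for instance in the control of p53 through MDM2.

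The deposited values are log2 signals of a gcRMA workflow with a median of 3.66 and a highest value of 16.61 over all arrays. Per array, the upper quartile of these signals averaged 7.93 ± 0.039 for the 13 metastatic tumors and 7.76 ± 0.15 for the 14 non-metastatic ones (SD). The 3′ to 5′ difference of the GAPDH control probe sets, a sign of RNA quality, was 1.84 ± 0.32 in metastatic and 1.32 ± 0.42 in non-metastatic tumors on the log2 scale. Sample titles end in the letter T for 11 of 13 metastatic and 0 of 14 non-metastatic tumors, and no source used here says whether this marks a batch. The 7 measured luminal epithelial markers had a mean level per tumor of 7.66 to 12.47 in metastatic and 6.05 to 11.91 in non-metastatic tumors, and none of them differed past the threshold.

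Part of the ribosomal protein genes were lower in metastatic carcinomas, most of them by a small amount. Of the 51 genes of 40S and 60S proteins, 16 fell and 0 rose in metastatic tumors (19 and 2 at an unadjusted p under 0.05, limma), and 39 of 51 differences were negative, with a median of -0.15 on the log2 scale. RPS27 fell most (log2 difference -0.71), followed by RPS26 (-0.37), RPLP2 (-0.35) and RPS21 (-0.35). The 3 genes that rose were not among the 51, namely the paralogs RPL7L1 (0.84) and RPL22L1 (0.77) and the RPS19-binding RPS19BP1 (1.02). Over all 59 genes, 27.1% fell and 5.08% rose at an adjusted p under 0.05 (limma with Benjamini-Hochberg adjustment over 15115 genes), against a background of 7.27% lower and 10.6% higher among all genes tested. The median difference was -0.13 over the 59 genes and -0.0019 over all genes. With array medians set equal, 5 of the 59 genes fell and 3 rose, while among all genes 635 fell and 1839 rose, against 1099 and 1595 with the values as deposited. With tumor size and age, or the GAPDH difference, in the model 1 of the 59 (1.69%) fell, RPS27, and 1 rose, RPS19BP1. These shares are near those over all genes in the same models, which were 1.14% lower and 3.08% higher with size and age and 2.04% lower and 3.48% higher with the GAPDH difference. Without non-metastatic tumor 12, which stood apart in these genes, 21 fell (35.6%, against 7.75% of all genes) and 2 rose (3.39%, against 11.5%). In bulk RNA of macrodissected tissue, fewer cells of a type and less RNA per cell cannot be told apart.

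**Figure D1:**
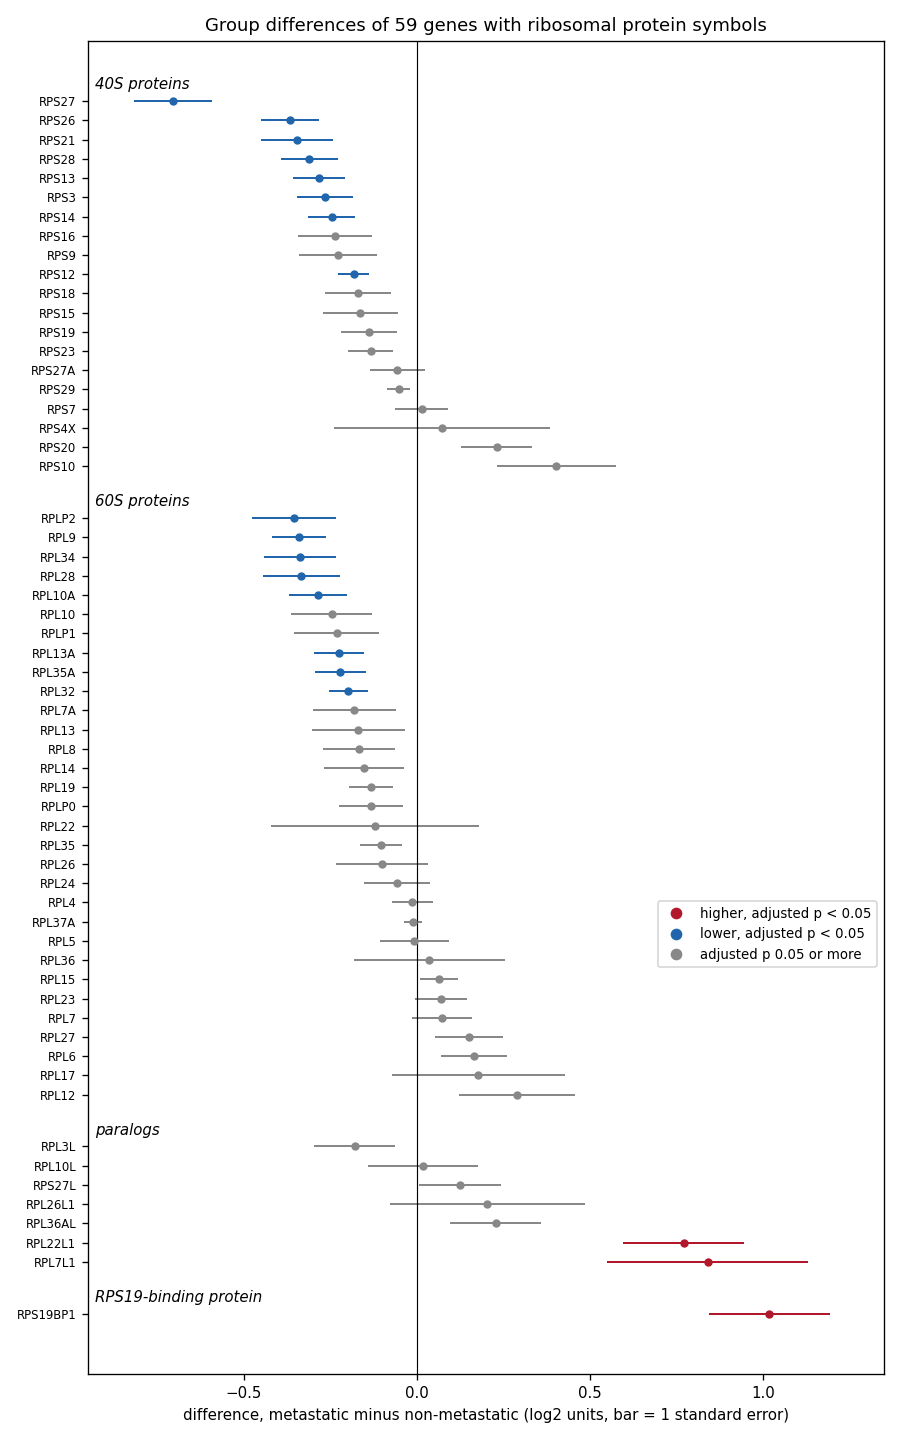
Difference of group means on the log2 scale (metastatic minus non-metastatic, x axis) for the 59 genes, ordered within 40S proteins, 60S proteins, paralogs and RPS19BP1, with bars of 1 standard error and 13 and 14 tumors in the groups. Colored points passed an adjusted p of 0.05, and 16 of the 51 ribosomal proteins lie left of 0 with color while 0 lie right of it with color.

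Genes of both subunits were among those that fell. In the 40S subunit 8 of 20 genes fell, 16 differences were negative and the median was -0.18. In the 60S subunit 8 of 31 genes fell, 23 differences were negative and the median was -0.13. All 16 genes that fell belong to the 43 genes of 40S and 60S proteins with a mean level of 13 or more, of which 35 had negative differences and the median was -0.17. The remaining 8 genes, with mean levels of 2.72 to 12.04, gave 4 positive and 4 negative differences and 0 calls. For comparison, 190 other genes with a mean level of 13 or more had a median difference of 0.047, with 19 higher and 11 lower (5.79%) in metastatic tumors. Among the 61 other genes with a mean level of 14 or more the median was -0.030, and 2 were higher and 7 lower (11.5%).

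Among the 40S proteins, RPS27, a zinc finger protein of the platform, had values of 12.74, 13.18 and 13.79 (lowest, median and highest) in metastatic tumors and 13.30, 13.99 and 14.39 in non-metastatic tumors. All 13 metastatic tumors lay below the non-metastatic median, and the groups overlapped only through 1 low non-metastatic tumor, since the next lowest non-metastatic value was 13.86. The difference of -0.71 had a standard error of 0.11 (limma, adjusted p = 0.00039), which is a level in metastatic tumors of 0.613 times that in non-metastatic tumors. With the GAPDH difference in the model it was -0.43 (limma, adjusted p = 0.0231). The second probe set of RPS27 gave a smaller difference of -0.19.

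RPS26, which lines the mRNA exit channel and is mutated in human Diamond-Blackfan anemia, had values of 14.49, 14.82 and 15.15 in metastatic tumors and 14.49, 15.24 and 15.48 in non-metastatic tumors. Its difference was -0.37 with a standard error of 0.08 (limma, adjusted p = 0.00485), and 13 of 13 metastatic tumors lay below the non-metastatic median. RPS28, a small protein near the exit channel, had values of 14.07, 14.42 and 14.65 in metastatic tumors and 14.00, 14.75 and 15.00 in non-metastatic tumors (difference -0.31). RPS13 (-0.28) and RPS14 (-0.25), a platform protein lost in the human 5q- syndrome, also had 13 of 13 metastatic tumors below the non-metastatic median. In all, this held for 6 of the 16 genes that fell, and 15 of the 16 had at least 12 metastatic tumors below it. In each of the 16 genes the ranges of the groups overlapped.

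RPS3, a protein of the mRNA entry channel, fell by 0.26 (limma, adjusted p = 0.0240), and the small 40S protein RPS21 fell by 0.35 (limma, adjusted p = 0.0244). RPS12, a protein of the beak, showed the smallest change of the 16 (-0.18) but also a small spread, with values of 15.01, 15.19 and 15.41 in metastatic tumors and 15.21, 15.38 and 15.55 in non-metastatic tumors (limma, adjusted p = 0.00603). Its adjusted p was 0.187 after a second quantile normalization and 0.0827 after centring (limma).

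The other 12 genes of the 40S subunit did not pass the test. RPS7 had the highest level of all 59 genes, 15.60 ± 0.22 in metastatic and 15.59 ± 0.18 in non-metastatic tumors (SD, n = 13 and 14), and a difference of 0.014. RPS29 had the smallest spread of the 59 genes after the dim RPL37A, 15.42 ± 0.094 in metastatic and 15.47 ± 0.062 in non-metastatic tumors. RPS19, the most often mutated gene of human Diamond-Blackfan anemia, had a difference of -0.14 (limma, adjusted p = 0.227), and RPS27A, made as a fusion with ubiquitin, one of -0.056. Positive differences were found for RPS10 (0.40, adjusted p = 0.0995 by limma) and RPS20 (0.23, adjusted p = 0.112 by limma), which both sit in the head of the subunit. RPS10 was read at a mean level of 8.58. Another bright probe set of RPS20, with a mean level of 14.23, went the opposite way. It averaged 14.11 in metastatic and 14.35 in non-metastatic tumors. RPS4X, whose probe set was dim at a mean of 6.11, also had a positive difference (0.073).

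Among the 60S proteins, RPL9, at the base of the stalk, had values of 14.54, 14.77 and 15.44 in metastatic tumors and 14.69, 15.19 and 15.45 in non-metastatic tumors. In 12 of 13 metastatic tumors it lay below the non-metastatic median, and the difference was -0.34 with a standard error of 0.08 (limma, adjusted p = 0.00493). RPL10A, the protein of the L1 stalk, had values of 14.25, 14.84 and 15.07 in metastatic tumors and 14.43, 15.12 and 15.31 in non-metastatic tumors, with 13 of 13 metastatic tumors below the non-metastatic median. Its difference was -0.29 with a standard error of 0.08 (limma, adjusted p = 0.0199). RPL34 fell by 0.34 (limma, adjusted p = 0.0265).

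RPL28 (-0.33), RPL13A (-0.23), which is also known as a translational silencer after interferon gamma, and RPL35A (-0.22), a further gene of human Diamond-Blackfan anemia, passed with adjusted p between 0.0329 and 0.0415 (limma). These calls lay near the threshold and were not stable. RPL28 was lost in 16, RPL35A in 15 and RPL13A in 5 of the 27 fits that left out 1 tumor. RPL35A had 9 of 13 metastatic tumors below the non-metastatic median, the fewest of the 16 genes.

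RPL32, a 60S protein, had values of 14.44, 14.53 and 14.95 in metastatic tumors and 14.54, 14.79 and 15.06 in non-metastatic tumors. The difference of -0.20 had a standard error of 0.06 (limma, adjusted p = 0.0192), and 12 of 13 metastatic tumors lay below the non-metastatic median. For its quantitative PCR the study used, among its housekeeping assays, a primer pair named RP32, which the tables used here do not pair with a gene symbol. Its sequences are shown because the name of this assay resembles that of a ribosomal protein, and they were not matched to RPL32 here.
RP32 forward: atgcccaacattggttatgg
RP32 reverse: ctctttccacgatggctttg
The quantitative PCR values were not analysed here.

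The stalk, which recruits the elongation factors, is formed by RPLP0 and the acidic proteins RPLP1 and RPLP2. RPLP2 had values of 13.05, 13.57 and 14.09 in metastatic tumors and 13.13, 14.01 and 14.57 in non-metastatic tumors, and 12 of 13 metastatic tumors lay below the non-metastatic median. The difference of -0.35 had a standard error of 0.12 (limma, adjusted p = 0.0436), and the call was lost in 18 of 27 fits that left out 1 tumor. RPLP1 averaged 11.92 ± 0.37 in metastatic and 12.15 ± 0.28 in non-metastatic tumors (difference -0.23, adjusted p = 0.183 by limma). RPLP0 averaged 14.93 ± 0.27 in metastatic and 15.07 ± 0.22 in non-metastatic tumors (difference -0.13, adjusted p = 0.316 by limma).

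The other 60S genes did not pass. RPL5, which carries the 5S RNA into the subunit and binds MDM2, averaged 14.95 ± 0.27 in metastatic and 14.96 ± 0.25 in non-metastatic tumors, a difference of -0.0071 whose sign turned under several alternative settings. RPL12, at the stalk base, had the largest positive difference among the 60S genes (0.29, adjusted p = 0.224 by limma), followed by RPL17 (0.18), RPL6 (0.17) and RPL27 (0.15). RPL37A had the lowest mean of all 59 genes, 2.72, below the median of 3.77 over all probe sets, so its difference of -0.011 says little about the transcript.

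**Figure D2:**
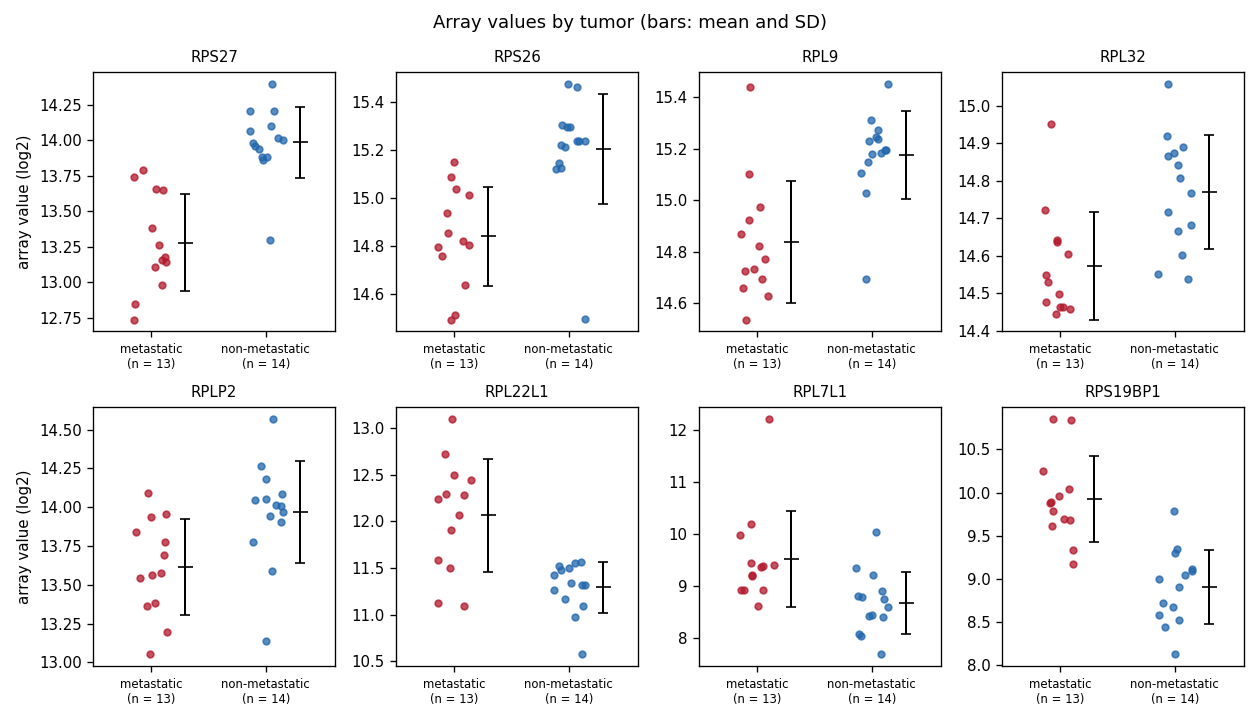
Array values (log2, y axes with separate ranges that do not start at 0) of 8 genes by group (13 metastatic, 14 non-metastatic), 1 point per tumor and the mean and SD drawn as bars. RPS27, RPS26, RPL9, RPL32 and RPLP2 lie lower and RPL22L1, RPL7L1 and RPS19BP1 higher in metastatic tumors, and a single low non-metastatic tumor stands apart for RPS27, RPS26 and RPL9.

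Non-metastatic tumor 12 was low in most ribosomal protein transcripts, though not in RPL7 or RPL23. It had the lowest value of the 14 non-metastatic tumors in 15 of the 16 genes that fell and in 33 of the 43 genes with a mean level of 13 or more. The median deviation of these 43 genes from their means over 27 tumors was -0.48 in this tumor, the lowest of all, and its GAPDH difference of 2.29 was the highest of all. The number in its title is the one that the design text of the series gives for the dog with later lung metastases. Without it, all 16 genes that fell remained, and RPS16, RPS18, RPL7A, RPL8 and RPL10 were added. RPL7L1 was lost (limma, adjusted p = 0.0644), and the difference of RPS27 was -0.76 (limma, adjusted p = 9.17e-05).

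The same median deviation was -0.23, -0.10 and 0.13 (lowest, median and highest) in metastatic tumors and -0.48, 0.12 and 0.23 in non-metastatic tumors. It was negative in 9 of 13 metastatic tumors and positive in 11 of 14 non-metastatic tumors. For the 190 other genes of that level it was -0.14, 0.051 and 0.096 in metastatic tumors and -0.16, 0.0011 and 0.10 in non-metastatic tumors.

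**Figure D3:**
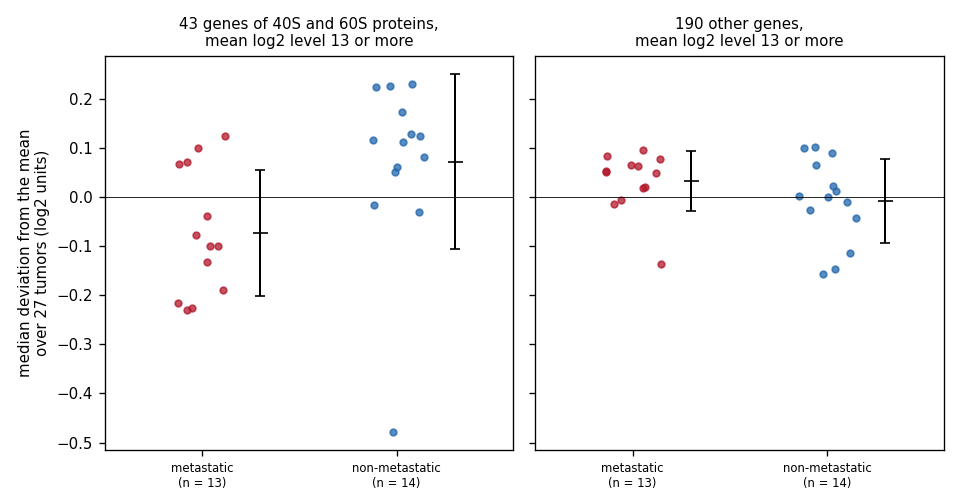
Median deviation of each tumor from the mean over 27 tumors (log2 units, y axis) for 43 genes of 40S and 60S proteins (left) and 190 other genes (right), all with a mean log2 level of 13 or more, by group, with the mean and SD drawn as bars. On the left 9 of 13 metastatic tumors lie below 0, and the lowest point, at -0.48, is non-metastatic tumor 12.

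The ribosomal protein genes also varied together from tumor to tumor. With the group means removed, the 903 pairs among the 43 genes had a median Pearson correlation of 0.47 over the 27 tumors, and 94.4% of them were positive. The 17955 pairs among the 190 other genes had a median of 0.024, with 53.2% positive. These pairs share tumors and arrays, and the values are given as a description. They include non-metastatic tumor 12, the lowest of its group in 33 of the 43 genes, and the correlations without it were not computed. RPS3 (mean correlation with the other genes 0.61), RPS16 (0.61) and RPL7A (0.61) followed the set most closely, whereas RPL7 (0.059), RPL32 (0.20) and RPL24 (0.24) followed it least.

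Of the 7 paralogs 2 rose and 0 fell, and 6 differences were positive. RPL22L1, which can take the place of the RNA-binding protein RPL22, had values of 11.09, 12.24 and 13.10 in metastatic tumors and 10.57, 11.33 and 11.56 in non-metastatic tumors. It exceeded the median of the non-metastatic group in 11 of 13 metastatic tumors, and the difference was 0.77 with a standard error of 0.17 (limma, adjusted p = 0.00443). RPL22 itself averaged 9.05 ± 0.82 in metastatic and 9.18 ± 0.77 in non-metastatic tumors. RPL7L1, a relative of RPL7, had values of 8.62, 9.37 and 12.21 in metastatic tumors and 7.68, 8.67 and 10.04 in non-metastatic tumors. Its difference of 0.84 had a standard error of 0.29 (limma, adjusted p = 0.0449), and the call was lost in 18 of 27 fits that left out 1 tumor. Neither paralog passed with tumor size and age, the upper quartile or the GAPDH difference in the model.

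RPS27L, a p53-induced relative of RPS27, averaged 13.99 ± 0.37 in metastatic and 13.87 ± 0.25 in non-metastatic tumors, a difference of 0.12 (limma, adjusted p = 0.468). RPL36AL had a difference of 0.23 and RPL26L1 one of 0.20. RPL3L, which is known from striated muscle, and RPL10L, known from testis, were dim, with means of 3.81 and 2.85 in metastatic and 3.99 and 2.83 in non-metastatic tumors.

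The change of a paralog relative to its main gene was compared within each tumor for the 5 pairs with both genes measured. The difference RPS27L minus RPS27 had values of -0.17, 0.71 and 1.73 in metastatic tumors and -0.96, -0.12 and 0.71 in non-metastatic tumors on the log2 scale. It was larger in metastatic tumors by 0.83 (standard error 0.20, two-sided permutation test, adjusted p = 0.00105 over 5 pairs), and 12 of 13 metastatic tumors exceeded the median of the non-metastatic group. RPL22L1 minus RPL22 was larger by 0.89 (standard error 0.35, permutation test, adjusted p = 0.0262) and RPL7L1 minus RPL7 by 0.77 (standard error 0.31, permutation test, adjusted p = 0.0262). RPL10L minus RPL10 differed by 0.26 and RPL26L1 minus RPL26 by 0.31 (permutation test, adjusted p = 0.338 for both). The level of such a difference mixes 2 probe sets and has no meaning of its own, so only its change between groups is given. These changes are made from the same values as the gene differences and are no separate evidence. The gene differences were -0.71 for RPS27 and 0.12 for RPS27L, and 0.77 for RPL22L1 and -0.12 for RPL22. For RPL7L1 and RPL7 they were 0.84 and 0.072.

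**Figure D4:**
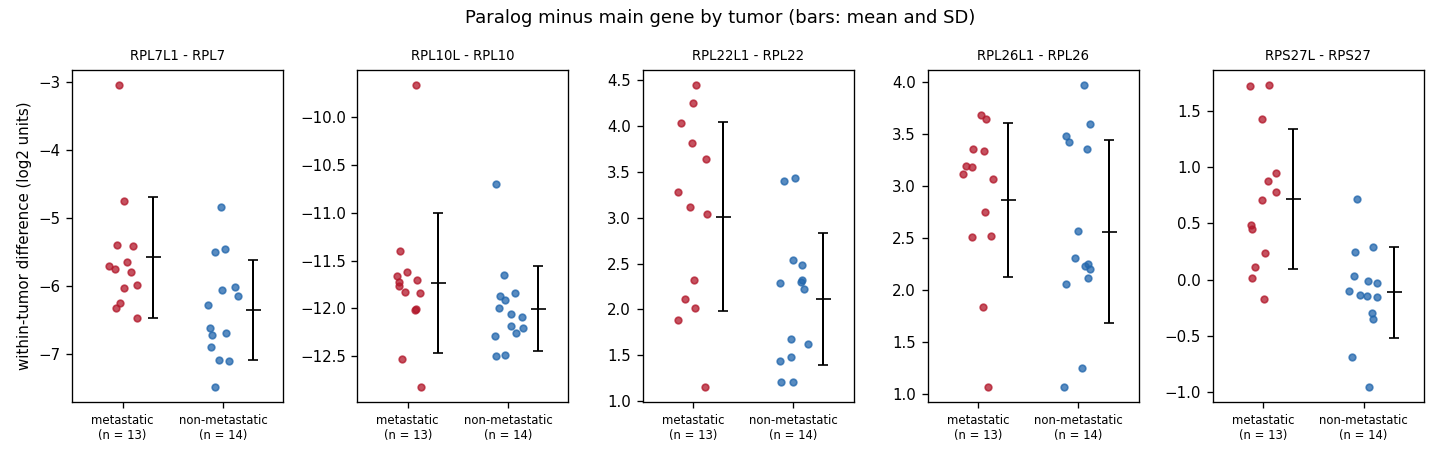
Within-tumor difference of a paralog minus its main gene (log2 units, y axes with separate ranges) for 5 pairs by group (13 metastatic, 14 non-metastatic), 1 point per tumor and the mean and SD drawn as bars. For RPS27L minus RPS27, 12 of 13 metastatic tumors lie higher than the median of the non-metastatic group.

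RPS19BP1, also known as a regulator of the deacetylase SIRT1, rose most of the 59 genes. Its values were 9.17, 9.88 and 10.85 in metastatic tumors and 8.12, 8.95 and 9.79 in non-metastatic tumors, and 13 of 13 metastatic tumors lay above the non-metastatic median. The difference of 1.02 had a standard error of 0.18 (limma, adjusted p = 0.000653). Its other probe set gave 1.14 (limma, adjusted p = 0.000449 over all probe sets).

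Of the 59 genes, 32 have more than 1 probe set, and the agreement of the others was limited. Among 62 further probe sets, 41 had a difference of the same sign as the one that stood for the gene and 21 the opposite sign, and 2 were higher and 6 lower in metastatic tumors past an adjusted p of 0.05 over all probe sets. Their correlation with the first probe set over the 27 tumors had a median of 0.53 and ranged from -0.36 to 0.98. For the 10 of them with a mean level of 13 or more, 5 had the same and 5 the opposite sign, with a median correlation of 0.79. Of the 59 probe sets used, 36 have an identifier with the suffix s, 8 with x and 2 with a, by which the manufacturer marks probes that can match several transcripts. Among the 33 genes that also have a probe set without such a suffix, 2 fell and 2 rose when only those probe sets were allowed. These are 6.06% lower and 6.06% higher, against 8.68% lower and 9.91% higher among all genes in that fit. The median difference was -0.011 both for the 33 genes and for all genes.

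RPL32 differed most between its probe sets. The second one was much dimmer, with 6.08 ± 0.74 in metastatic and 7.83 ± 0.76 in non-metastatic tumors, and its difference was -1.75 (limma, adjusted p = 0.000294 over all probe sets), against -0.20 for the first. RPL35 gave -0.10 for the probe set that stood for it and 1.10 for a dim one with 6.75 ± 1.09 in metastatic and 5.65 ± 0.87 in non-metastatic tumors (limma, adjusted p = 0.0360 over all probe sets). The 11 probe sets of RPL6 ranged from -0.77 to 0.40, and the 8 of RPS20 from -0.24 to 0.79. RPL34 ranged from -0.34 to 0.45 over 5 probe sets, RPS29 from -0.17 to 0.40 over 6, RPL10A from -0.29 to 0.27 over 2 and RPL36AL from -0.11 to 0.42 over 3. RPS27 ranged from -0.71 to -0.19 over 2 probe sets and RPS26 from -0.37 to -0.023 over 3. The second probe set of RPS27L fell by 0.33 (limma, adjusted p = 0.0311 over all probe sets), while the first had a positive difference. With all probe sets of a gene averaged, RPS27L minus RPS27 was larger in metastatic tumors by 0.35 (permutation test, adjusted p = 0.0304).

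No ribosomal protein gene passed the test for histological grade. With lymph node status in the model, 0 of the 59 genes passed in either direction between grade III and grade II tumors (limma), where 0% of all genes were higher and 0% lower, and 0 of the 59 reached an unadjusted p under 0.05. The differences, grade III minus grade II, ranged from -0.27 for RPL26L1 to 0.18 for RPL10L, with a median of -0.014. The interaction of lymph node status and grade passed for 0 genes (limma, smallest adjusted p among the 59 genes 0.999987), and 1 of the 59 had an unadjusted p under 0.05. With non-metastatic tumor 1 taken as grade III, an alternative added after seeing the data, 0 of the 59 genes passed for grade in limma and 0 had an unadjusted p under 0.05.

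Tumor size, with lymph node status in the model, also passed for 0 of the 59 genes (limma), where 0.953% of all genes rose and 0.0397% fell with size. The slopes ranged from -0.085 to 0.051 log2 units per cm, with a median of 0.00035, and 1 of the 59 genes, RPL3L, reached an unadjusted p under 0.05 (slope 0.051, adjusted p = 0.394 by limma).

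A pair of ribosomal proteins under other symbols did not pass and had negative differences. FAU, which codes for RPS30 fused to a ubiquitin-like protein, averaged 13.38 ± 0.28 in metastatic and 13.67 ± 0.37 in non-metastatic tumors (difference -0.29, adjusted p = 0.105 by limma). RACK1, a signaling scaffold on the 40S head, averaged 14.41 ± 0.28 in metastatic and 14.64 ± 0.33 in non-metastatic tumors (difference -0.23, adjusted p = 0.159 by limma).

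The list of elongation factors also holds release and recycling factors. In this mixed list 3 of 13 genes were higher and 3 of 13 lower in metastatic tumors, with a median difference of 0.048. Of all genes, 10.6% were higher and 7.27% lower. EEF2, which moves the ribosome along the mRNA, averaged 11.37 ± 0.54 in metastatic and 12.77 ± 0.71 in non-metastatic tumors, a difference of -1.39 (limma, adjusted p = 0.000674), and 0 of 13 metastatic tumors lay above the non-metastatic median. EEF1A1, which delivers aminoacyl-tRNA, fell by 0.38 (limma, adjusted p = 0.0018), and EIF5A fell by 0.41 (limma, adjusted p = 0.0324). The recycling factor ABCE1 (0.67), the release factor GSPT1 (0.49) and EIF5A2 (1.24), a relative of EIF5A, rose. EIF5A was lost in 6 and EIF5A2 in 14 of 27 fits that left out 1 tumor.

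Among factors that start translation and build ribosomes, more genes rose than fell. Of 32 initiation factors 10 rose (31.2%) and 1 fell (median difference 0.23). Of all genes 10.6% rose, and of other genes with a mean level of 8 to 13 it was 18.2%. EIF1AX, a scanning factor, rose by 0.84 (limma, adjusted p = 0.000799), EIF2S1, a subunit of the factor that brings the initiator tRNA, by 0.78, the subunit joining factor EIF5B by 0.77 and the cap-binding protein EIF4E by 0.68, while the scaffold protein EIF4G3 fell by 0.85. Of 86 ribosome biogenesis genes 30 rose and 2 fell (median 0.40). MPHOSPH10 rose by 0.95 (limma, adjusted p = 0.0011), UTP6 by 0.97 and WDR43 by 0.90, all of them components of the small subunit processome, and SBDS, which releases EIF6 from new 60S subunits, by 0.58. The exceptions were NOC3L, with 8.29 ± 1.10 in metastatic and 10.30 ± 1.41 in non-metastatic tumors (difference -2.02, adjusted p = 0.00582 by limma), and the dim KRR1 (-0.24). With the upper quartile of the arrays in the model, 5 of the 86 biogenesis genes and 2 of the 32 initiation factors rose, where 2.94% of all genes rose in that model, against 10.6% without the term.

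Of 12 genes of RNA polymerase I, which transcribes ribosomal RNA, and its factors, 4 rose and 1 fell (median difference 0.18). RRN3, which ties growth signals to the polymerase, rose by 1.02, the promoter factor TAF1A by 0.79 and the shared subunits POLR2F and POLR2E by 0.47 and 0.33, while the termination factor TTF1 fell by 0.97. Among 15 genes that control ribosomal protein mRNA translation, the RNA polymerase III repressor MAF1 rose (0.93) and TSC2, an inhibitor of mTOR signaling, fell (-0.62). Of 12 import factors and chaperones only TNPO1, a nuclear import receptor, rose (0.68), and of 7 genes of the p53 response only SESN1, an inhibitor of mTOR signaling, fell (-1.10). In these groups, as in the biogenesis genes and initiation factors, the calls are read against the same background of 10.6% higher and 7.27% lower. That background includes dim genes. Among 4340 other genes with a mean level of 8 to 13, 18.2% were higher and 5.14% lower, with a median difference of 0.19. The medians of the RNA polymerase I genes (0.18) and initiation factors (0.23) lay near this value, and that of the biogenesis genes (0.40) lay above it. The lists were not matched to this level. The mitosis genes, a measure of dividing cells, had 23 of 26 members higher (median 2.27). Many of them are among the genes that the study lists as up-regulated in these same tumors, so this count is no separate evidence.

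**Figure D5:**
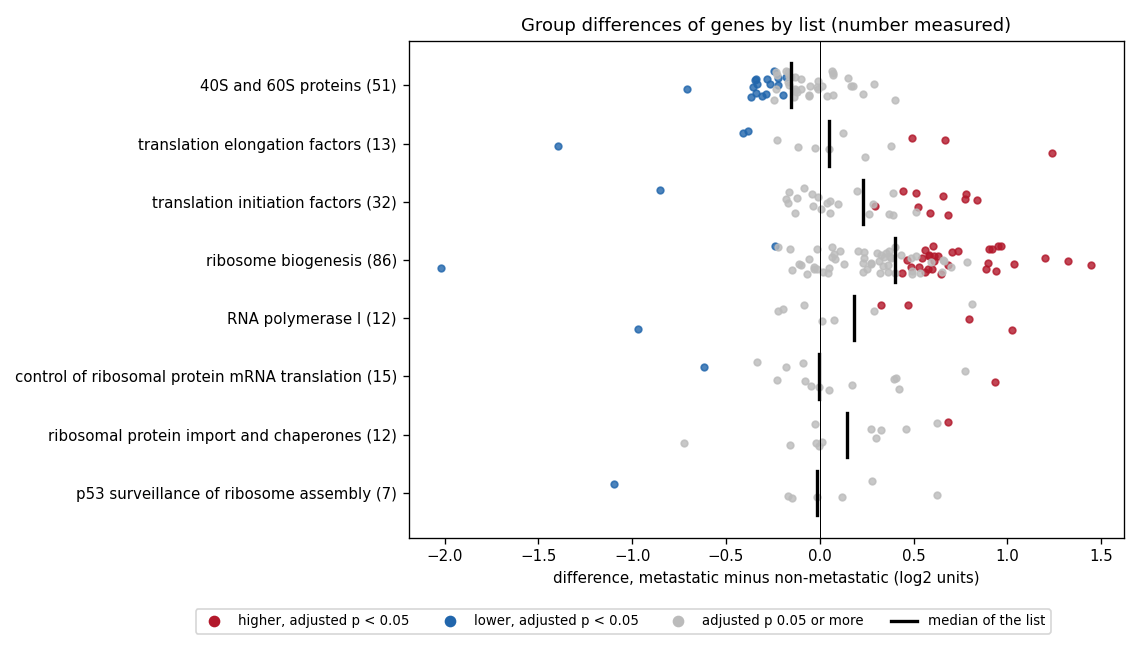
Difference of group means (log2 units, metastatic minus non-metastatic, x axis) for the 51 genes of 40S and 60S proteins and for 7 lists of other genes of translation and ribosome assembly, 1 point per gene, with the median of each list as a line. The ribosomal proteins have a median of -0.15 and the 86 biogenesis genes one of 0.40.

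Of 66 cell type markers measured beside these genes, 5 fell (7.58%, against 7.27% of all genes) and 1 rose (1.52%, against 10.6%). Of 8 smooth muscle and myoepithelial markers 3 fell in metastatic tumors (MYH11 by a difference of -3.88, CNN1 by -2.64 and MYLK by -2.47) and 0 rose, and the mean level of the 8 was 6.75 to 9.42 in metastatic and 7.68 to 10.57 in non-metastatic tumors. Of 3 basal markers KRT17 fell, and of 7 endothelial markers PECAM1 rose and TEK fell. None of the 8 fibroblast, 6 adipocyte, 10 T and NK cell, 6 B and plasma cell, 8 macrophage and 3 neutrophil markers passed. The part of cell composition, of RNA quality and of the T ending in the ribosomal protein differences was not tested beyond the covariates given. With the T ending as a block, which leaves 2 metastatic against 14 non-metastatic tumors, 0 of the 59 genes passed (limma, with 8 lower and 0 higher at an unadjusted p under 0.05). Among all 15115 genes, 0 were lower and 10 higher (0.0662%) in that fit, so the count of 0 does not set the 59 genes apart. RPS27 had a difference of -0.26 and RPS19BP1 one of 0.61, and 45 of 59 differences were negative.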

How the data were processed

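Each of the 27 tumors, from different dogs, had 1 array. The authors ran the gcRMA workflow of Partek Genomic Suite, which is stated to correct background by RMA, apply quantile normalization and summarize probes by median polish. The deposited arrays nevertheless differ in their upper quartiles, which ran from 7.53 to 8.00. The deposited values are log2 signals and were used as they stand. Quantile normalization leaves the absolute amount of RNA unknown. Of 43035 probe sets, 175 controls were left out. Of the 42860 tested, 29254 carry 1 gene symbol in the platform annotation, 439 several and 13167 none.

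Groups followed the lymph node entry of the labels. limma 3.58.1 in R 4.3.3 (linear model and empirical Bayes) was fitted to all 42860 probe sets, with Benjamini-Hochberg adjustment over 15115 genes, each read from its probe set of highest mean, or over all probe sets where single probe sets are given. Paralog pairs were compared by 100000 permutations of the tumors. The limma comparison of the groups without covariates was tested on simulated data with independent noise per probe set. The permutation test and the fits with covariates were not tested in this way. No tumor has a replicate array, so precision is set by the number of tumors.

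The genes, lists and tests were chosen with earlier results of these data known. Named were up to 12 genes of largest difference in each direction among those past the test, genes chosen by role, the paralogs, the extremes of level and spread, 8 genes whose probe sets differed most, and per list up to 4 genes in the main direction and 2 in the other. RPS12, RPL13A, RPL35A, RPS10, RPL12 and other genes outside that rule were named after their values were seen. Alternatives covered scaling, the probe set per gene, dim genes, array weights, size and age, grade, upper quartile, GAPDH difference, title ending, the methods' test, the thresholds of the study and single tumors. Chosen after seeing the data were a variance prior that follows the level, grade III for non-metastatic tumor 1 and a count without paralogs and RPS19BP1. Figures used Python 3.11.15 and matplotlib 3.10.9.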

Additional observations from a re-analysis of the deposited data

How the results depend on the processing

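The count of ribosomal protein genes lower in metastatic tumors, 16 as reported, was 10 after a second quantile normalization, 5 with arrays centred on their medians, 8 with the mean of all probe sets of a gene, 9 with the probe set of lowest mean, 2 among 33 genes with probe sets without a suffix, 25 with array weights, 1 with tumor size and age as covariates, 1 with the GAPDH difference as covariate, and 0 both with the title ending as a block and at the thresholds of the study. After quantile normalization 16.9% of the 59 genes were lower, against 6.28% of all genes, and after centring 8.47% against 4.2%. With the mean of all probe sets it was 13.6% against 6.68%, and with the probe set of lowest mean 15.3% against 5.72%. Array weights gave 42.4% against 7.32%, size and age 1.69% against 1.14%, and the GAPDH difference 1.69% against 2.04%. At the thresholds of the study 0.304% of all genes were lower. The count of higher genes, 3 as reported, was 1 with size and age, 1 with the upper quartile, 1 with the GAPDH difference, 1 at the thresholds of the study, 0 with the title ending as a block and 0 without paralogs and RPS19BP1. A count of 1 is 1.69% of the 59 genes. Of all genes, 3.08% were higher with size and age and 2.94% with the upper quartile. With the GAPDH difference 3.48% of all genes were higher, and at the thresholds of the study 0.496%. With the upper quartile as covariate 11 genes were lower (18.6%, against 2.71% of all genes), 10 of them among the 16. Leaving out each of the 27 tumors gave 12 to 21 lower and 2 to 4 higher genes, and 14 of the 19 calls held in every such fit. Why the counts moved was not tested, except that the title ending leaves 2 metastatic tumors for the comparison. At an unadjusted p under 0.05 in limma, 8 of the 59 genes were lower and 0 higher with the title ending. At an adjusted p under 0.05, 0 of all 15115 genes were lower and 10 higher (0.0662%) in that fit.

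Among the named genes checked under every setting, differences that turned sign were those of RPL5, with 0.047 after quantile normalization, 0.041 after centring, 0.012 with size and age, 0.024 with the GAPDH difference and -0.045 to 0.037 over single tumors left out, and of RPS27L, with -0.087 with the GAPDH difference and -0.17 with the title ending. With the title ending the differences of RPL9 (0.094), RPL32 (0.067), RPS10 (-0.053) and EIF5A (0.11) also turned, and none of these values passed the test. Over single tumors left out, 6 of the 59 differences crossed 0, those of RPL5, RPL4, RPL36, RPL10L, RPS4X and RPS7, none of them called. Biogenesis genes higher in metastatic tumors, 30 as reported, were 17 after quantile normalization, 14 with size and age, 13 with the GAPDH difference, 5 with the upper quartile and 0 with the title ending. In the same fits and order, 6.54%, 3.08%, 3.48%, 2.94% and 0.0662% of all genes were higher, against 10.6% as reported. The counts for grade and size stayed at 0 under the scalings and covariates tried for them, and the 5 comparisons of a paralog with its main gene stayed on their side of the threshold with the mean of all probe sets, the 1 alternative run. With grade III for non-metastatic tumor 1 and grade as covariate, 15 genes were lower and 2 higher. No paired analysis was possible because the tumors come from different dogs and the labels give no replicate numbers.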
